A study of Mus musculus with 6 samples.

Results

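The transcripts of 10 genes known as targets of the transcription factor p53 were followed in mouse liver that was growing after portal vein surgery. The genes, listed by name, were Tnfrsf10b, Eda2r, Bax, Bbc3, Pmaip1, Aen, Phlda3, Ccng1, Zmat3 and Mdm2, 10 of the 20018 genes that could be named on the arrays. Every probe whose RefSeq accession belonged to one of them was kept, which gave 12 of 55681 probes, with 2 probes each for Aen and Eda2r and 1 for each of the other 8 genes. Livers came from male C57BL/6J mice, and both groups were taken 3 days after an operation. PVBL mice had the left portal vein branch tied off, and the regenerating right lobe, which kept its portal flow, was collected. The sham group had a sham operation, and its liver was collected at the same time. There were 3 samples per group and 1 single-colour Agilent array per sample. Nothing in the labels ties each sample to an animal of its own, so p-values measure only the spread among the samples at hand, part of which may be technical.

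p53 is a transcription factor that is held at a low level by Mdm2, a ubiquitin ligase that marks it for breakdown. After DNA damage and other stress p53 is stabilised and switches on genes that halt the cell cycle, genes that kill the cell, and Mdm2 itself, which closes a negative feedback loop. In the liver, p53 activity is known from DNA damage, from growth after loss of tissue and from control of hepatocyte ploidy. By the known role of their proteins, 7 of the 10 genes are death-related (the receptors Tnfrsf10b and Eda2r, the BCL2 family genes Bax, Bbc3 and Pmaip1, and Aen and Phlda3), 2 are arrest-related (Ccng1 and Zmat3) and 1 is the feedback gene Mdm2.

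p53 binds DNA through a pair of half-sites of 10 bases each, and promoters of the genes are shown as background. Whether their sequences bear on the differences between the groups was not tested. RefSeq promoters (build GRCm38.p6, 250 bases before to 50 bases after the start, 300 in all) were matched by symbol. Those of 7 of the 10 genes, 10 promoters in all, were searched for the p53 half-site, which reads the same on both strands. Pmaip1 was left out because of the chromosome it lies on, and Tnfrsf10b and Zmat3 had no promoter to match. Capitals mark an exact half-site or the best pair of half-sites no more than 13 bases apart with at most 3 mismatches in all, none of them at the invariant C and G of a half-site. The first promoter listed for each gene that holds such a pair is shown.
Ccng1 (chr11:40755237-40755536, minus strand): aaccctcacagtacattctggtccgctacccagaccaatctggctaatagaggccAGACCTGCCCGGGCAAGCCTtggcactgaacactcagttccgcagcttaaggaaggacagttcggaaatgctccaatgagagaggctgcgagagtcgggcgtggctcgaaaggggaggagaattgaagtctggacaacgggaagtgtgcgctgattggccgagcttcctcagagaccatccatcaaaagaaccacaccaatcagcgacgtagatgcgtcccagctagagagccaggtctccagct
Bbc3 (chr7:16309333-16309632, plus strand): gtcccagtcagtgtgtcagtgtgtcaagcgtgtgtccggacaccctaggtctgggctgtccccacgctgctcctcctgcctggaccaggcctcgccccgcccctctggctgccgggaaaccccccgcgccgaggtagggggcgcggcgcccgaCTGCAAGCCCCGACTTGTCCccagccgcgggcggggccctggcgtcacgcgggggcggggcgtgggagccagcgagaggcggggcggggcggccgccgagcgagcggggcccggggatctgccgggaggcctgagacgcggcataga
Bax (chr7:45466849-45467148, minus strand): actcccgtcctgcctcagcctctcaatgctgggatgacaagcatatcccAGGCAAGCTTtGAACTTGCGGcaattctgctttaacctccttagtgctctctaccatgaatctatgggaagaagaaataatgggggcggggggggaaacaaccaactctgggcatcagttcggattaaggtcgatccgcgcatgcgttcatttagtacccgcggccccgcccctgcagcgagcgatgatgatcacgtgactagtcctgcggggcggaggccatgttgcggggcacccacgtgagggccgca
Aen (chr7:78895677-78895976, plus strand): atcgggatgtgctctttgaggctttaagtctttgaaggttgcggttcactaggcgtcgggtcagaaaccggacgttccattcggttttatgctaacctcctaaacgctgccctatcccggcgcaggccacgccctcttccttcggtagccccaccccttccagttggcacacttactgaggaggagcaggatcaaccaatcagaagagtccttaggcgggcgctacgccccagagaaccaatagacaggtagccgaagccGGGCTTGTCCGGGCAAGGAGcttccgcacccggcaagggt
The pair in Ccng1 began 195 bases before the start and had 1 mismatch, at or under which 0.627% of all 32851 promoters in the table had a pair. The pair in Bax began 201 bases before the start with 2 mismatches (4.09% of promoters at or under that). The pairs in Bbc3, beginning 97 bases before the start, and in Aen, beginning 10 bases after it, had 3 mismatches, and 15.6% of all promoters had a pair at or under that. An exact half-site stood in the shown promoters of Ccng1, Bax and Aen and in that of Mdm2, 186 bases before its start, against 8.36% of all promoters. Counted by gene over all its promoters, 4 of the 7 genes held an exact half-site, against 9.55% of all genes. A pair was held by 4 of the 7, against 17.4% of all genes. Neither letter pattern was found in the windows of Phlda3 and Eda2r. These matches describe the letters of the windows only, and p53 sites that lie inside genes were not searched.

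Signals are given relative to the 75th percentile of each array, so 1 is the level of that percentile. Log2 differences are PVBL minus sham with limma's SE (n = 3 per group), and adjusted p-values are from limma with Benjamini-Hochberg adjustment over the 27909 probes tested. Of the 12 probes, 10 (9 genes) passed the filter on dim probes, which asks for a signal well above background in every sample of 1 group or of both, and both Eda2r probes did not. Of the 10 tested probes, 8 (7 genes) rose and 0 fell at the threshold of 0.05, where 11.3% of all tested probes were higher and 19.3% lower. At an unadjusted p under 0.05 likewise none was lower. In the same 8 probes all PVBL arrays lay above all sham arrays, as in 17.6% of all tested probes. The same 8 probes were called without PVBL 3, the array with the highest sums of leukocyte and stellate cell markers. Its biliary sum was also the highest (21.3), but Spp1 made up 19.7 of it. Only 1 of the 5 biliary markers was highest on PVBL 3. Leaving out PVBL 3 does not remove the marker differences between the groups. On PVBL 1 and 2 the stellate cell sums were 18.8 and 15.6 (8.07 to 11.6 in sham). The biliary sums there were 15.4 and 6.86 (1.84 to 4.14 in sham), and the leukocyte sums were lower than in sham (30.2 and 32.0 against 48.2 to 54.0). These bulk samples cannot tell a change in RNA per cell from a change in the share of a cell type.

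**Figure D1:**
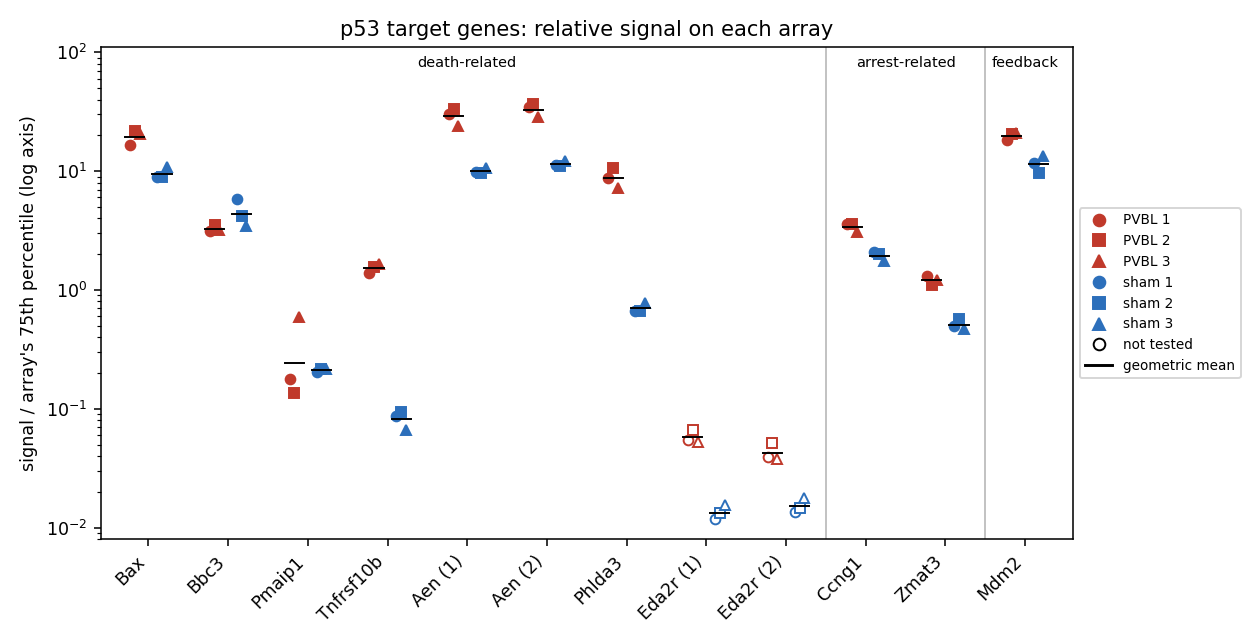
Signal of each of the 12 probes on each array relative to the array's 75th percentile (log axis), PVBL in red and sham in blue, with 1 marker shape per replicate number and a black bar at the geometric mean of 3 arrays. Open symbols are the Eda2r probes, which were not tested. The gap between groups is widest for Tnfrsf10b and Phlda3 among tested probes, and PVBL 3 stands above the other arrays for Pmaip1.

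The death receptor gene Tnfrsf10b had the largest log2 difference of the members, except with normexp background correction, where Phlda3 had the larger one (2.28 for Tnfrsf10b and 3.30 for Phlda3). It encodes the mouse receptor for the death ligand TRAIL. Its relative signal was 1.40, 1.57 and 1.66 on PVBL arrays 1 to 3, against 0.0874, 0.0947 and 0.0658 on sham arrays 1 to 3. The lowest PVBL value was 14.8 times the highest sham value. The log2 difference was 4.24 ± 0.17 (18.9-fold, 95% interval 14.2 to 25.0, adjusted p = 1.55e-05), and 0.566% of all tested probes had a higher one. The sham signal was near the limit of the arrays, 13.4 to 28.5 processed units, and well above background on 2 of 3 sham arrays, so the probe passed the filter through the PVBL group. With normexp, which adds an offset of 50 units, the fold was 4.86.

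Eda2r encodes a receptor for ectodysplasin A2 of the same TNF receptor superfamily. Its first probe had relative signals of 0.0551, 0.0669 and 0.0525 on the PVBL arrays, against 0.0117, 0.0132 and 0.0154 on the sham arrays. The second probe had 0.0394, 0.0520 and 0.0375 on the PVBL arrays, against 0.0135, 0.0146 and 0.0177 on the sham arrays. In both probes the PVBL values lay above the sham values, but none of the 6 arrays was well above background for either probe, so no fold is given.

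The 3 BCL2 family genes differed among themselves. Bax, which forms pores in the mitochondrial outer membrane, had relative signals of 16.7, 21.6 and 20.5 on the PVBL arrays, against 8.88, 8.94 and 10.8 on the sham arrays. The groups did not overlap, and Bax rose by 1.04 ± 0.16 on the log2 scale (2.05-fold, 95% interval 1.59 to 2.65, adjusted p = 0.00450). Bbc3 encodes PUMA, a BH3-only protein that activates Bax. Its relative signal was 3.16, 3.54 and 3.17 on the PVBL arrays, against 5.82, 4.21 and 3.45 on the sham arrays. The groups overlapped, as PVBL 2 lay above sham 3. Its log2 difference was -0.42 ± 0.20 (95% interval -0.90 to 0.06, adjusted p = 0.152), so the interval ends below the lower bound for Bax (0.67). The Bbc3 value passed the threshold only with array weights (-0.59, adjusted p = 0.0161), and over the other alternatives its adjusted p went up to 0.907.

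Pmaip1 encodes NOXA, another BH3-only protein. It had relative signals of 0.177, 0.136 and 0.592 on the PVBL arrays, against 0.203, 0.217 and 0.215 on the sham arrays. PVBL 3 lay above every sham array and the other PVBL arrays lay below every one. The log2 difference was 0.20 ± 0.50 (95% interval -0.98 to 1.37, adjusted p = 0.779), and without PVBL 3 it was -0.45 (adjusted p = 0.0760). On PVBL 3 the summed relative signal of 9 leukocyte markers was also the highest, 68.7 against 30.2 and 32.0 on the other PVBL arrays and 48.2 to 54.0 on the sham arrays. The Kupffer cell marker Clec4f made up 34.7 of that sum, and 6 of the 9 markers were highest on PVBL 3, while the T cell marker Cd3e was lowest there (4.23). The part of these cells in the Pmaip1 value was not tested.

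Aen and Phlda3 complete the death-related genes. Aen encodes an exonuclease that p53 induces and that takes part in apoptosis. Its first probe had relative signals of 30.3, 33.3 and 24.0 on the PVBL arrays, against 9.82, 9.72 and 10.7 on the sham arrays. The second had 34.5, 36.5 and 28.3 on the PVBL arrays, against 11.2, 11.1 and 12.2 on the sham arrays. Both probes rose by the same amount, 1.52 ± 0.16 and 1.52 ± 0.14 on the log2 scale (2.87-fold and 2.86-fold, adjusted p = 0.00100 and 0.000692).

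Phlda3 encodes a small pleckstrin homology domain protein that competes with the survival kinase Akt for membrane lipids. Its relative signal was 8.83, 10.7 and 7.26 on the PVBL arrays, against 0.660, 0.661 and 0.783 on the sham arrays. The lowest PVBL value was 9.27 times the highest sham value. Phlda3 rose by 3.66 ± 0.18 on the log2 scale (12.6-fold, 95% interval 9.47 to 16.8, adjusted p = 3.06e-05), and 0.767% of tested probes had a higher difference. Unlike Tnfrsf10b it was well above background on all 6 arrays, and with normexp the fold was 9.85.

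Both arrest-related genes rose by modest amounts. Ccng1 encodes cyclin G1, an unusual cyclin that acts with a phosphatase on Mdm2 and takes part in arrest after DNA damage. Its relative signal was 3.58, 3.59 and 3.06 on the PVBL arrays, against 2.08, 2.01 and 1.74 on the sham arrays. It rose by 0.81 ± 0.14 on the log2 scale (1.76-fold, 95% interval 1.40 to 2.20, adjusted p = 0.00699). Zmat3 encodes an RNA-binding zinc finger protein that restrains growth. Its relative signal was 1.32, 1.11 and 1.22 on the PVBL arrays, against 0.497, 0.564 and 0.472 on the sham arrays. It rose by 1.25 ± 0.14 on the log2 scale (2.38-fold, 95% interval 1.90 to 2.97, adjusted p = 0.00131). In neither gene did the groups overlap.

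The feedback gene Mdm2 rose by about as much as Ccng1. Its relative signal was 18.3, 20.5 and 20.8 on the PVBL arrays, against 11.6, 9.71 and 13.4 on the sham arrays. The groups did not overlap, the lowest PVBL value being 1.37 times the highest sham value. The log2 difference was 0.79 ± 0.16 (1.73-fold, 95% interval 1.34 to 2.23, adjusted p = 0.0115). When all 55681 probes were tested with no filter, the adjusted p was 0.0572.

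**Figure D2:**
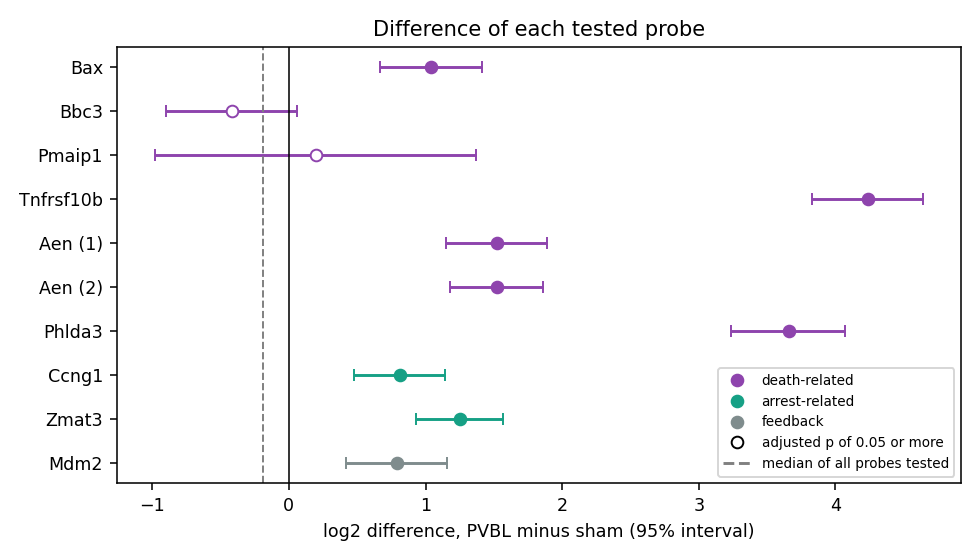
Log2 difference, PVBL minus sham, of the 10 tested probes with 95% intervals from limma (n = 3 arrays per group), coloured by role. Filled symbols passed the adjusted p threshold of 0.05, and the dashed line is the median of all tested probes (-0.19). Tnfrsf10b and Phlda3 lie apart from the other probes, Bbc3 and Pmaip1 have intervals that include 0, and the arrest-related and feedback genes lie between 0.79 and 1.25.

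Death-related and arrest-related targets were then set side by side. Among the death-related genes 4 of the 6 tested rose, none fell, and the median log2 difference was 1.28, with a range from -0.42 (Bbc3) to 4.24 (Tnfrsf10b). Both arrest-related genes rose, with a median of 1.03. With only probes above background on all 6 arrays, which leaves out Tnfrsf10b, the medians were 1.04 (death-related) and 1.03 (arrest-related). The median over all 13582 named genes tested was -0.09, and 15.6% of them were called higher and 18.3% lower. The interval of Bax (0.67 to 1.41) overlapped those of Ccng1 (0.48 to 1.14) and Zmat3 (0.93 to 1.57). The intervals of Tnfrsf10b (3.83 to 4.64) and Phlda3 (3.24 to 4.07) lay above those of both arrest-related genes. The sham signal of Tnfrsf10b was near the limit of the arrays, and its difference was 2.28 with normexp. No test of one role against the other was made, as the genes are not replicates and an exact permutation test of 3 against 3 arrays cannot go below p = 0.1. The death-related genes thus held the largest and the smallest of the members' differences. However, 6 of them were tested and only 2 arrest-related members, so the larger set was more likely to hold both extremes. Cdkn1a, an arrest-related target outside the members, had a larger difference than any death-related member in its first probe (5.44, interval 5.12 to 5.76). Its second probe, not well above background on any sham array, had 2.38, below Tnfrsf10b.

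Other p53 targets were read from lists drawn up by role. Of 9 other arrest-related targets 8 were tested, 3 rose, 2 fell and 3 did not pass, with a median of -0.22 (0.02 without PVBL 3 and 0.10 with spike-in scaling), where 15.6% of all named genes tested were called higher and 18.3% lower. The count of genes that fell was 1 without PVBL 1, PVBL 2, sham 1 or sham 3 and 0 with spike-in scaling or no filter. Cdkn1a, which encodes the CDK inhibitor p21, had relative signals of 4.87, 5.30 and 4.57 on the PVBL arrays, against 0.102, 0.113 and 0.125 on the sham arrays, a log2 difference of 5.44 ± 0.14 (adjusted p = 3.20e-06; 3.89 with normexp). Its second probe was not well above background on any sham array. With sham values raised to the lowest signal well above background, the estimated fold of this probe was 3.85. The fit without that floor gave an adjusted p of 0.00410, and with normexp the log2 difference was 0.69. The polo-like kinase gene Plk2 rose by 0.99 ± 0.12 (adjusted p = 0.00230) and the antiproliferative gene Btg2 by 1.51 ± 0.41 (adjusted p = 0.0312). The call of Btg2 was lost without any 1 PVBL array (1.40 to 1.68), without sham 1 (1.52), without sham 3 (1.08) and with no filter (adjusted p = 0.0976). Sfn, which encodes 14-3-3 sigma, fell by 1.17 (SE 0.24, adjusted p = 0.0134). It lost its call with spike-in scaling (-0.85) and with no filter (adjusted p = 0.0562). The other gene that fell was Sesn1, which encodes sestrin 1 and is named here after its value was seen (-0.46 ± 0.12, adjusted p = 0.0318). Its call was lost without PVBL 1, PVBL 2 or any 1 sham array, and with median scaling (-0.32), spike-in scaling (-0.14) or no filter.

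Of 10 other death-related targets 8 were tested, 3 rose, none fell and 5 did not pass, with a median of 0.14. Among all named genes tested, 15.6% were called higher and 18.3% lower. Pidd1, the gene of a death domain adaptor that activates caspase-2, had relative signals of 0.237, 0.380 and 0.247 on the PVBL arrays, against 0.135, 0.118 and 0.129 on the sham arrays. The groups did not overlap, and Pidd1 rose by 1.14 ± 0.20 (log2; adjusted p = 0.00775; 0.50 with normexp). Siva1 and Steap3 had smaller differences, 0.63 ± 0.19 and 0.56 ± 0.15 in their called probes (adjusted p = 0.0428 and 0.0303). Each of these genes had a second probe that did not pass (0.60 and 0.30). Siva1 lost its call without PVBL 2, PVBL 3 or any 1 sham array, and Steap3 without PVBL 1, PVBL 3 or any 1 sham array. Both calls were also lost with spike-in scaling and with no filter. The death receptor gene Fas, named here after its value was seen, had a log2 difference of -0.37 ± 0.16 (adjusted p = 0.118; called with array weights, -0.49), against 4.24 for Tnfrsf10b.

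**Figure D3:**
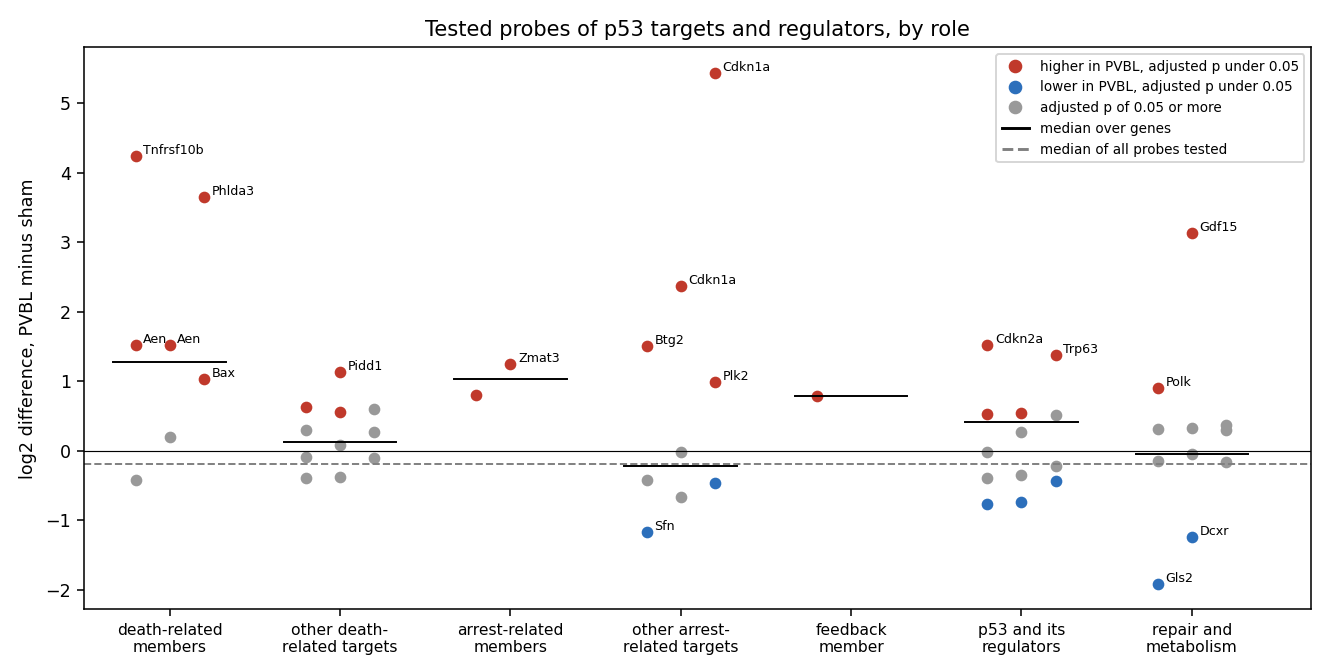
Log2 difference, PVBL minus sham, of every tested probe of the 10 genes and of 4 further lists of p53 targets and regulators, with red for higher and blue for lower at an adjusted p under 0.05 and grey for the rest. Black bars are medians over genes and the dashed line is the median of all tested probes. Probes called with a difference over 0.9 in size are named, and Cdkn1a has the largest difference shown.

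The transcript of p53 itself, Trp53, had relative signals of 0.492, 0.425 and 0.381 on the PVBL arrays, against 0.342, 0.339 and 0.233 on the sham arrays. The groups did not overlap, but the log2 difference of 0.52 ± 0.19 did not pass the threshold (adjusted p = 0.0795). It passed only with array weights (0.58, adjusted p = 0.00819). Of 9 genes in the list of p53 and its regulators 4 rose and 2 fell, where 15.6% of all named genes tested were called higher and 18.3% lower. The count that rose was 1 with normexp or no filter, 1 without PVBL 1, PVBL 3, sham 1 or sham 2, and 2 without PVBL 2. Mdm4, the partner of Mdm2 that restrains p53, rose by 0.55 ± 0.16 in 1 probe (adjusted p = 0.0369; 0.27 and adjusted p = 0.249 in the other). That call was lost without any 1 PVBL array, sham 1 or sham 2, and with normexp (0.15), spike-in scaling, no filter or a trend in eBayes. Cdkn2a, whose p19Arf product blocks Mdm2, rose by 1.52 ± 0.37 (adjusted p = 0.0231), in 1 of 2 probes. The call was lost with normexp (0.42) and without PVBL 1, PVBL 3, sham 1 or sham 2 (1.25 to 1.51). Ppm1d, a phosphatase gene named here after its value was seen, rose by 0.53 ± 0.16 (adjusted p = 0.0465), and lost its call without any 1 of the 6 arrays (0.44 to 0.64), with normexp (0.38), with spike-in scaling and with no filter.

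The p53 relative Trp63 was called in 1 probe (1.38 ± 0.27, adjusted p = 0.0110), with relative signals of 5.66, 5.52 and 5.08 on the PVBL arrays, against 2.19, 2.98 and 1.37 on the sham arrays. No array gave a signal well above background for its other probe, so the probes of this gene differed. Usp7, a deubiquitinase of Mdm2 and p53, fell by 0.76 (SE 0.15, adjusted p = 0.0103) in 1 of 2 probes, but by spike-in scaling it was -0.44 and not called. The ubiquitin ligase gene Cop1 fell in 2 of 3 probes, by 0.74 and 0.43 (adjusted p = 0.0137 and 0.0334). The first of these calls was lost without sham 1, and the second without any 1 of the 6 arrays. With spike-in scaling neither Cop1 probe was called (-0.42 and -0.11). No gene in the list of p53 and its regulators was called lower with no filter.

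Of 10 targets in repair and metabolism 9 were tested, 2 rose, 2 fell and 5 did not pass, with a median of -0.04. These counts stand beside 15.6% of all named genes tested called higher and 18.3% lower. Gdf15, which encodes a stress cytokine, rose by 3.14 ± 0.32 (adjusted p = 0.000944). Polk, a DNA polymerase that copies past damage, rose by 0.91 ± 0.13 (adjusted p = 0.00401) in 1 probe, and the other did not pass (0.38, adjusted p = 0.152). Gls2, the liver glutaminase gene, fell by 1.91 (SE 0.21, adjusted p = 0.00125). Dcxr, a carbonyl reductase gene, fell by 1.24 (SE 0.24, adjusted p = 0.0109), and lost its call with spike-in scaling (-0.92).

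Markers of the tissue and of other cells were read on the same arrays. All 7 hepatocyte markers were well above background on every array and none was called, with summed relative signals of 4080 to 5110 in PVBL and 5370 to 6420 in sham. All 6 proliferation markers rose in at least 1 probe (sums 59.2 to 97.3 in PVBL and 10.9 to 12.7 in sham). Top2a was not well above background on any sham array, so it passed the filter through the PVBL group. A Cdk1 probe that was well above background on every array was not called (0.04, adjusted p = 0.931). Of 4 tested biliary markers 3 rose (sums 6.86 to 21.3 in PVBL and 1.84 to 4.14 in sham), and of 7 stellate cell and fibroblast markers 3 rose and 1 fell (15.6 to 36.0 in PVBL and 8.07 to 11.6 in sham). The biliary marker Krt7 was well above background on only 2 sham arrays and passed the filter through the PVBL group. Of 6 endothelial markers 2 fell (45.1 to 66.4 in PVBL and 101 or more in sham), and of 9 leukocyte markers 1 fell (30.2 to 68.7 in PVBL and 48.2 to 54.0 in sham). The leukocyte marker that fell, Itgam, was called in 1 probe (-0.64, adjusted p = 0.0148) and not in its others (-0.27 and -0.25). The endothelial marker Kdr was called in 1 probe (-1.18) and not in the other (-0.48, adjusted p = 0.0672). For comparison, 15.6% of all named genes tested were called higher and 18.3% lower. No marker listed here was below background on all 6 arrays. The part of these cells in the rises of the p53 targets was not tested. The 75th percentile was 331 to 407 units in PVBL and 203 to 315 units in sham, and all arrays lay on 1 slide, PVBL in row 2 and sham in row 1, so the effects of row and surgery cannot be told apart.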

How the data were processed

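Liver RNA of 6 samples was measured on single-colour Agilent arrays, and the labels gave each sample's group and replicate number. The deposited scanner files hold intensity values, made per the file headers with Agilent Feature Extraction 10.7.3.1 (design 028005, build mm9), while the submitters' processing notes name version 9.1. The deposited value table holds log2 values whose normalization is not given in the sources used here. They matched the scanner values scaled to the 75th percentile and centred per probe (r of at least 0.9997 per array), and 100% of its 7850 rows had groups that did not overlap, so it served only as an alternative.

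Log2 of the processed signal was taken, control spots and those marked as outliers (115 to 201 per array, none of them a member's) were dropped, repeated spots were averaged by probe, and the 75th percentile of the array was subtracted. Probes whose signal was well above background in every sample of either group were tested by limma 3.58.1 (R 4.3.3, lmFit and eBayes, two-sided), a step tested on simulated data. The normexp alternative used the median spot signal, as the files hold no mean signal. Probes were named by RefSeq accession (gene table GRCm38.p6), and 47.4% had a symbol. A gene was counted as higher or lower if a probe was called so and none the other way. The genes named beyond the 10 members were Cdkn1a, Trp53, Mdm4 and up to 4 called genes per list with the largest change. Fas, Ppm1d and Sesn1 fall outside this rule and were named after their values were seen. Members, roles and lists were chosen with earlier results of these data known. Alternatives were other scalings, filters, probe summaries and fits, and leaving out each array. Same-numbered arrays of the groups lay in the same slide column and had deviations that correlated at 0.20, -0.04 and 0.23. Arrays of unlike number correlated at -0.25 to 0.15. These values do not settle whether the numbers pair the samples. The main fit therefore left the numbers out, and a fit with the replicate number as a block was run as an alternative. The number of arrays limits the precision.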

Additional observations from a re-analysis of the deposited data

How the results depend on the processing

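Of the members' probe values under 18 alternatives, 169 of 173 kept their direction and their side of the threshold. The exceptions were Mdm2 (0.79, adjusted p = 0.0572 with no filter), Bbc3 (called with array weights, -0.59) and Pmaip1 (-0.18 with array weights, -0.45 without PVBL 3). The 173 include 8 values from the authors' deposited table. All rows of that table had groups that did not overlap, so the agreement of these 8 carries no weight. A change of filter, a block for the replicate number or a trend in eBayes could move only the adjusted p, not the difference itself. Nor could 1 value per gene move the difference of a gene with 1 tested probe. With 1 array left out Pmaip1 ranged from -0.45 to 0.61 and was not called. The uncalled probes of Usp7 (0.10 with spike-in scaling) and Polk (-0.03 with normexp) also changed sign. The count of members' probes called higher was 7 to 9 over all alternatives. It was 9 with no filter, where both Eda2r probes were called and Mdm2 was not, and the count called lower was 1 with array weights. The count of all probes called, 8516, was 3117 with spike-in scaling, 3621 with no filter, 4474 and 4546 with 1 value per gene (highest probe and mean of probes), 15741 with array weights, and 4160 to 8496 with 1 array left out, 4160 being without sham 1. Fits with 1 array left out assume the same spread in both groups. The median over all probes, -0.19, was -0.06 with median scaling and 0.13 with spike-in scaling. Accordingly the share of calls that were higher differed: 3142 higher and 5374 lower became 3990 and 3289 with median scaling and 2505 and 612 with spike-in scaling.

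The median of death-related members was 1.41 with median scaling, 1.60 with spike-in scaling, 1.52 with no filter, 1.04 for probes above background on all 6 arrays (without Tnfrsf10b) and 2.58 in the authors' deposited table, which lacks Bbc3 and Pmaip1. It was 1.20 to 1.35 with 1 array left out. The median of arrest-related members was 0.88 with normexp, 1.16 with median and 1.35 with spike-in scaling. The median of the other arrest-related targets was 0.10 with spike-in scaling, 0.26 in the authors' deposited table and 0.02 without PVBL 3, and that of the other death-related targets was 0.22 with quantile, 0.27 with median and 0.45 with spike-in scaling, 0.35 with no filter, 0.70 in the authors' deposited table and 0.10 to 0.32 with 1 array left out. The cause was not tested. With the replicate number as a block (replicate block), 8 members' probes were called higher, as without it, and 7390 of all probes were called, against 8516. In the wider lists the block removed the calls of Ppm1d (adjusted p = 0.0634), Sesn1 (adjusted p = 0.0640), the first Mdm4 probe (adjusted p = 0.0575) and 1 Cop1 probe (-0.43), and Siva1 lost the call of 1 probe (adjusted p = 0.0563) and was called in its other (adjusted p = 0.0435). Regulators called higher were then 2, against 4, and other arrest-related targets called lower 1, against 2. No slide or scan block was run, as there was 1 slide and 1 scan. Array signal over background limits Tnfrsf10b in sham and Eda2r in both groups.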
